A study of Rattus norvegicus with 24 samples.

Results

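Follistatin, the product of Fst, is a secreted protein that binds activins. The activin system was followed here through every array probe annotated to 1 of 8 rat genes: Fst, the follistatin-like gene Fstl1, the activin subunit genes Inhba and Inhbb, and the activin receptor genes Acvr1, Acvr1b, Acvr2a and Acvr2b. These are 8 of 13337 genes named on the array. They have 10 of its 22523 probes, and 5 of these 10 gave enough signal to be tested, for Fst, Fstl1, Acvr1, Acvr2a and Acvr2b. Fst was chosen by its log2 change 2 h after methamphetamine (METH), so its values in that comparison are given as a description and were not tested. The other 7 genes were taken for their place in the pathway.

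Activins are dimers of inhibin beta subunits that belong to the TGF-beta superfamily. They bind a type II receptor, which recruits and activates a type I receptor, and the type I receptor then phosphorylates Smad2 and Smad3, which move to the nucleus with Smad4. Follistatin holds activin in a complex that cannot reach its receptors. In the brain, activin A, the dimer of the Inhba product, is known from work in rodents as a gene product induced by neuronal activity that affects synapses and neuron survival.

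Dorsal striatum was profiled on single-colour Illumina arrays from male Sprague Dawley rats, with 1 array per sample. The 4 groups of 6 arrays were METH rats killed 2 h after their last session, the yoked saline rats that share slide 1 with them, METH rats killed 24 h after their last session, and the yoked saline rats that share slides 2 and 3 with those. METH rats had self-administered 0.1 mg/kg of the drug per intravenous injection in sessions of 15 h on 8 days. The labels give no age and, for saline rats, no time of death, so that saline rats are matched to a METH time here only by sharing its slides. Rats of the 1 month time were not analysed here.

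The 9 tested markers of striatal projection neurons had a mean log2 level between 10.96 and 11.55 on every array. No sample of another tissue was at hand to set this level against, so the tissue label was not tested. Between 8208 and 9428 probes were above background on an array of slide 1, and between 9375 and 10306 on one of the other slides. The arrays of lowest weight were saline replicate 4 of slide 1 (weight 0.355) and METH replicate 6 of the 2 h group (weight 0.411), and the first of these also had the lowest 95th percentile of intensity on its slide. The 2 h change of each tested member is therefore also given without these 2 arrays. In METH rats at 2 h, 7 of 10354 tested probes passed an adjusted p of 0.05 (0.0676%), 6 of them higher (0.0579%) and 1 lower (0.00966%). In METH rats at 24 h, 5 did (0.0483%), 1 of them higher (0.00966%) and 4 lower (0.0386%). None of the 5 tested member probes passed at 24 h, and at 2 h none of the 4 besides Fst did. The first count lay between 3 and 17 and the second between 4 and 7 when 1 array was left out. No probe passed for the difference between the 2 effects, where 503 (4.86%) had an unadjusted p under 0.05 (limma with Benjamini-Hochberg adjustment over all tested probes).

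Fst was higher on every array of METH rats at 2 h than on any saline array of the same slide. Its normalized log2 level was 6.84 at the lowest, 7.10 at the median and 7.51 at the highest in METH rats at 2 h, against 5.45, 6.22 and 6.56 in saline rats of slide 1. The means were 7.15 ± 0.23 in METH rats and 6.17 ± 0.38 in saline rats (SD, n = 6 each), a log2 change of 0.99 or 1.98-fold. On the scale of the deposited intensities, before any normalization, the METH arrays read 117.8 to 174.5 (median 155.2) and the saline arrays 19.7 to 96.3 (median 66.4). The lowest METH array thus exceeded the highest saline array on both scales, and the ratio of the mean intensities was 2.33. Among all tested probes, 26 (0.251%) had every METH array above every saline array at 2 h, and Fst ranked 14th by log2 change. These values chose the gene and are no independent evidence of its rise.

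**Figure D1:**
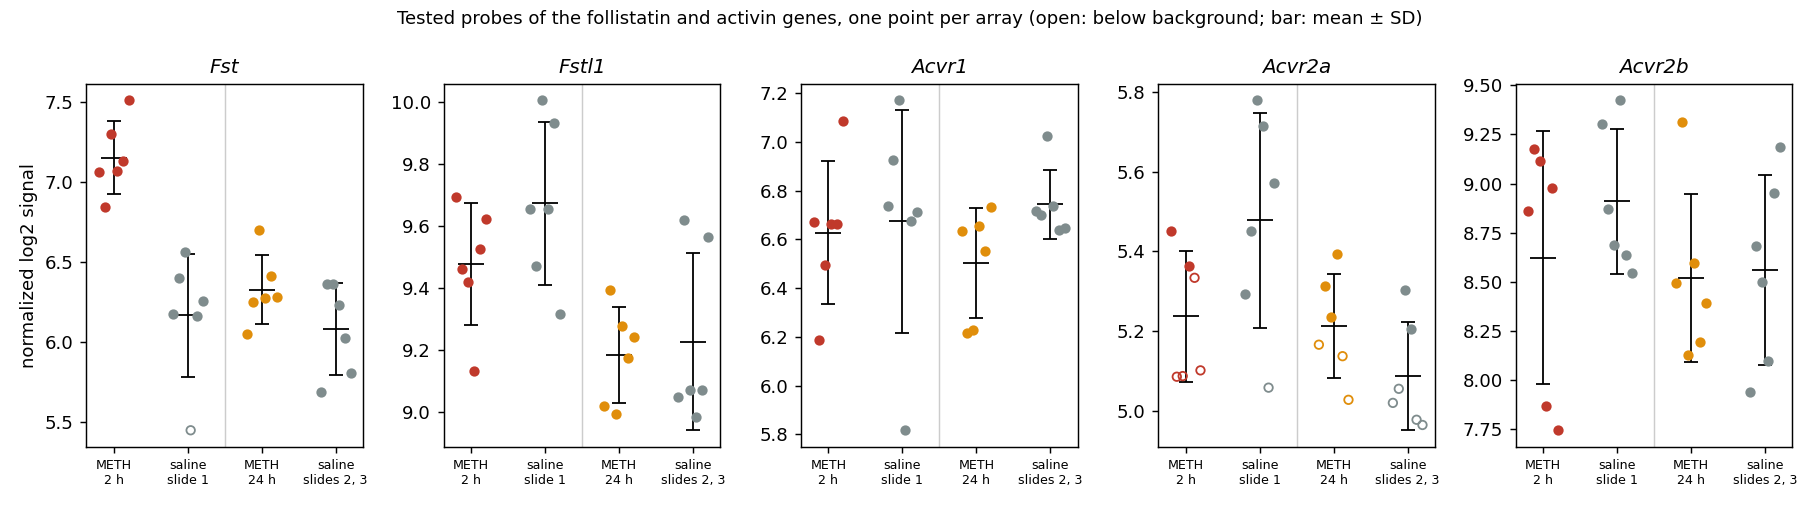
Normalized log2 signal (y axis) of the tested probes of Fst, Fstl1, Acvr1, Acvr2a and Acvr2b on each of 24 arrays, by group (x axis), with the METH group left of the saline group of its own slides. Open points are below background and bars are mean ± SD of 6 arrays. In the Fst panel the 6 METH arrays at 2 h lie between 6.84 and 7.51, above the saline arrays of slide 1 at 5.45 to 6.56, while the groups overlap in all the other comparisons shown.

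The size of that difference depended in part on 1 low saline array. Saline replicate 4 of slide 1 had the lowest Fst level, at 5.45, and was the only array of 24 on which Fst was not above background. Without it the log2 change was 0.84, and without both arrays of lowest weight it was 0.77. Over the 38 alternative ways of processing, the change at 2 h kept its sign and ran from 0.73 with a larger background offset to 1.35 in the authors' deposited log2 table. Some of these alternatives cannot move it, such as leaving out an array of another slide or changing only the filter or the variance model.

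At 24 h, Fst did not pass the test, and 2.25% of all tested probes had a higher log2 change. Its level was 6.05 at the lowest, 6.28 at the median and 6.70 at the highest in METH rats at 24 h, against 5.69, 6.13 and 6.36 in saline rats of slides 2 and 3. The groups overlapped, with 2 of 6 METH arrays above every saline array, while 0.0773% of all probes had all 6 above. Fst was not among those probes. The share of probes with 2 METH arrays above every saline array was not computed, so how common the count for Fst is was not tested. The means were 6.33 ± 0.22 in METH rats and 6.08 ± 0.29 in saline rats (SD, n = 6 each), a log2 change of 0.25 with a 95% interval from -0.08 to 0.57 (limma, adjusted p = 1), which leaves room for a change of up to 1.49-fold. Within slide 2 the change was 0.19 and within slide 3 it was 0.30. This comparison did not choose the gene. By mean level the 4 groups ran from METH at 2 h (7.15) over METH at 24 h (6.33) and saline of slide 1 (6.17) to saline of slides 2 and 3 (6.08). The ranges of the last 3 overlap, and the 2 h and 24 h groups lie on different slides. The log2 change at 24 h minus that at 2 h was -0.74, a value that contains the comparison that chose Fst and was not tested.

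**Figure D2:**
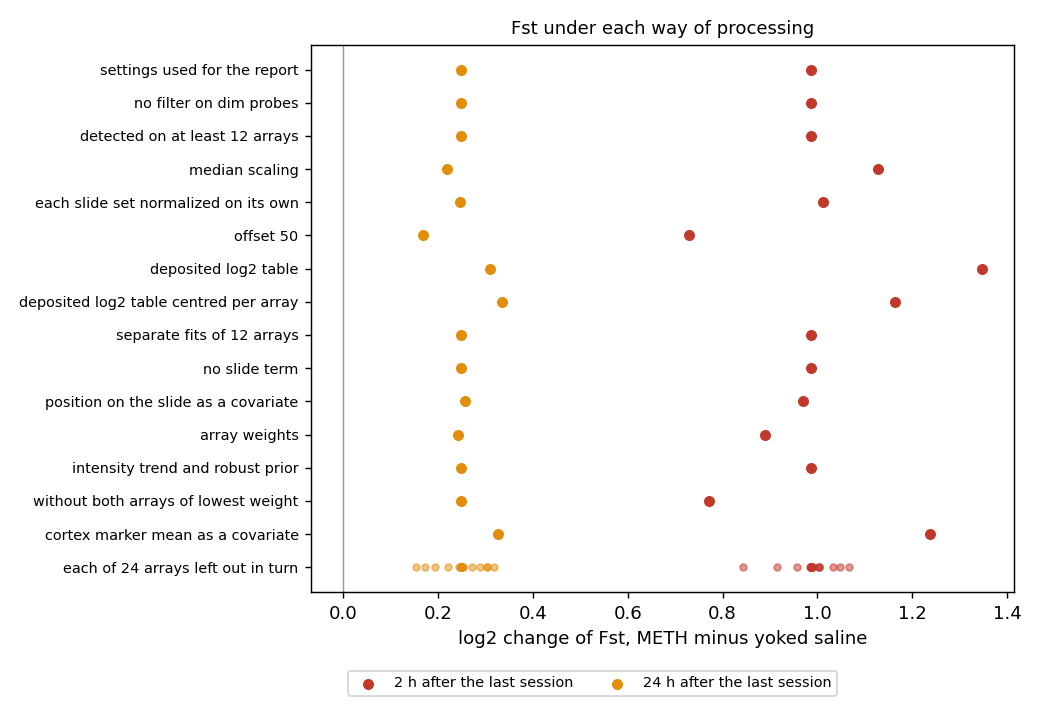
Log2 change of Fst, METH minus yoked saline (x axis), under the settings used for the report and each alternative (y axis), for 2 h and 24 h after the last session. The lowest line shows the values with each of 24 arrays left out in turn. The changes at 2 h lie between 0.73 and 1.35 and those at 24 h between 0.15 and 0.34, with no value at or below 0.

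Markers of other cells also stood at other levels in METH than in saline rats at 2 h, without passing the test. The 4 tested of 11 listed markers of cortical excitatory neurons, Slc17a7, Neurod6, Satb1 and Cck, had positive log2 changes at 2 h between 0.70 and 1.69 (adjusted p of 0.153 to 0.27, limma), and their mean log2 level was 7.03 to 8.44 on METH arrays at 2 h, against 5.68 to 7.70 on saline arrays of slide 1. Markers of projection neurons were lower by their mean, with a median over arrays of 11.19 and a highest array of 11.30 in METH rats at 2 h, against a median of 11.37 and a lowest array of 11.30 in saline rats of slide 1. The 3 tested choroid plexus markers had a median change of -0.93 at 2 h, with mean levels of 8.44 to 9.75 on METH arrays and 8.27 to 12.05 on saline arrays of slide 1. With the cortex marker mean as a covariate, chosen after the data were seen, the log2 change of Fst was 1.24 at 2 h and 0.33 at 24 h. Of 11 tested immediate early genes, 8 had positive log2 changes at 2 h, with a median of 0.36, and none passed the test. An unadjusted p under 0.05 at 2 h (limma) was found for 6 of them (54.5%), against 9.22% of all probes. The same held for all 4 cortical markers (100%), 5 of 9 projection neuron markers (55.6%) and 3 of 7 tested genes listed as striatal interneuron markers (42.9%). These 3 were Npy and Vip, which were higher, and Nos1, which was lower. Changes of the 7 ran from -0.34, that of Nos1, to 1.32, that of Vip, with a median of 0.18, and none passed. Vip was above background on 6 METH arrays at 2 h and on 0 saline arrays of slide 1. Whether its signal comes from striatal interneurons or from other cells was not tested. At 24 h, 3 of 5 tested blood markers fell (Hbb, Hbb-b1 and Hba-a1, adjusted p of 0.000926 to 0.00584, limma), and the mean level of the 5 was 7.61 to 8.50 on METH arrays at 24 h, against 8.71 to 9.72 on saline arrays of slides 2 and 3. Of 6 tested microglia markers, 5 had positive changes at 24 h, with a median of 0.43. None passed, 4 (66.7%) had an unadjusted p under 0.05, against 1.94% of all probes, and their mean level was 7.00 to 7.94 on METH arrays at 24 h, against 6.71 to 7.18 on saline arrays of slides 2 and 3. The part of these cells in the levels of Fst and the other members was not tested. The cortex marker mean itself stood at other levels in METH than in saline rats at 2 h, so a fit with this covariate cannot tell the 2 apart. In tissue pieces, fewer cells of a type and less RNA per cell cannot be told apart, here and in every result that follows.

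Fstl1 encodes a secreted glycoprotein with a follistatin domain that, unlike follistatin, is not known as a strong activin antagonist. Its level was 9.13, 9.49 and 9.69 (lowest, median, highest) in METH rats at 2 h, against 9.32, 9.65 and 10.00 in saline rats of slide 1. The groups overlapped, and 1 METH array was lower than all saline arrays. The log2 change was -0.20 with a 95% interval from -0.47 to 0.08 (limma, adjusted p = 0.674). In METH rats at 24 h the level was 8.99, 9.21 and 9.39, against 8.98, 9.07 and 9.62 in saline rats of slides 2 and 3, with a change of -0.04 (-0.32 to 0.23, adjusted p = 1). Without both arrays of lowest weight the change at 2 h was -0.23. Median scaling, which moved the median of all probes by 0.15, turned the small change at 2 h to 0.04. The difference between the effects was 0.15 (adjusted p = 0.99).

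**Figure D3:**
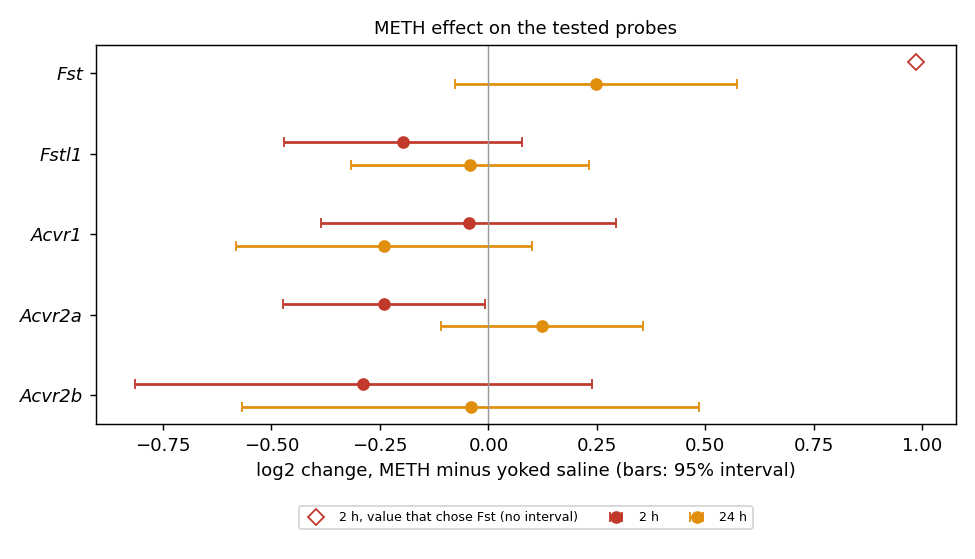
Log2 change, METH minus yoked saline (x axis), of the 5 tested probes (y axis) at 2 h and at 24 h, with 95% intervals from the linear model. The open diamond is the Fst value at 2 h that chose the gene, drawn without an interval at 0.99. The other 9 values lie between -0.29 and 0.25, and all their intervals reach 0 except that of Acvr2a at 2 h, which ends at -0.01.

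The ligands themselves were at or below the limit of the arrays. Inhba, whose product dimerizes to activin A, was above background on 1 of 6 METH arrays at 2 h and on none of the other 18 arrays. Its intensity was 6.4 to 23.4 on METH arrays at 2 h, against -4.4 to 22.5 on saline arrays of slide 1, where the lowest detected intensity of an array reached 30.5 at most. It was -0.2 to 7.8 on METH arrays at 24 h and -1.9 to 5.0 on saline arrays of slides 2 and 3, where that limit was 12.3 to 17.7. Neither probe of Inhbb, whose product forms activin B, was above background on any of 24 arrays, and their intensities ran from -13.2 to 11.1 and from -22.5 to -1.9. No fold change is given for these genes, and these arrays do not show whether Inhba or Inhbb transcripts differ between METH and saline rats.

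**Figure D4:**
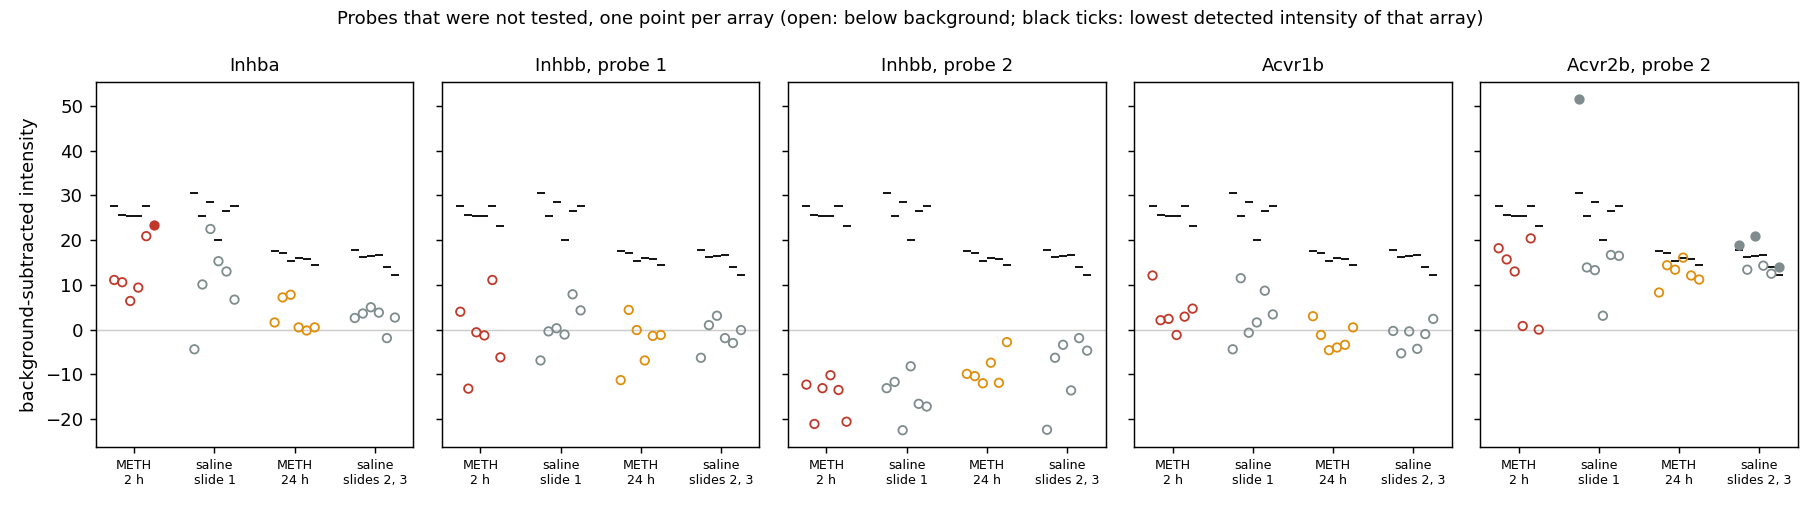
Background-subtracted intensity (y axis) of the 5 probes that were not tested, on each of 24 arrays by group (x axis), with open points below background. Black ticks mark the lowest detected intensity of each array. Nearly all points lie at or under their tick, with 1 Inhba array and 4 arrays of the dim Acvr2b probe above background.

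The type I receptors split by detectability. Acvr1 encodes a receptor also known as ALK2, which serves BMPs and can bind activin. It was above background on all 24 arrays, at 6.19, 6.66 and 7.09 in METH rats at 2 h, against 5.82, 6.72 and 7.17 in saline rats of slide 1, so that the METH values lay inside the saline range. The log2 change was -0.05 (95% interval -0.39 to 0.29, limma, adjusted p = 0.957). Leaving out the low saline replicate 4 gave -0.22, leaving out both arrays of lowest weight gave -0.31, and the cortex marker mean as a covariate gave 0.27. In METH rats at 24 h the level was 6.21, 6.59 and 6.73, against 6.64, 6.71 and 7.02 in saline rats of slides 2 and 3. There 4 of 6 METH arrays were lower than all saline arrays, a count whose share over all probes was not computed. The log2 change at 24 h was -0.24 (-0.58 to 0.10, limma, adjusted p = 1), and it was -0.45 within slide 2 and -0.03 within slide 3. The difference between the effects was -0.19 (adjusted p = 0.99), which was -0.02 without saline replicate 4 of slide 1 and 0.07 without both arrays of lowest weight. Acvr1b, which encodes ALK4, the main type I receptor of activin, was not above background on any of 24 arrays, with intensities from -5.3 to 12.1.

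Acvr2a and Acvr2b encode the type II receptors that bind activin first. Acvr2a was dim, above background on 2 of 6 METH arrays at 2 h, 5 of 6 saline arrays of slide 1, 3 of 6 METH arrays at 24 h and 2 of 6 saline arrays of slides 2 and 3. Its level was 5.09, 5.22 and 5.45 in METH rats at 2 h, against 5.06, 5.51 and 5.78 in saline rats of slide 1. The log2 change of -0.24 (95% interval -0.47 to -0.01) did not pass over all probes (limma, adjusted p = 0.516), and without both arrays of lowest weight it was -0.17. Like Acvr2a, 9.22% of all probes had an unadjusted p under 0.05 in the 2 h comparison. In METH rats at 24 h the level was 5.03, 5.20 and 5.39, against 4.96, 5.04 and 5.30 in saline rats of slides 2 and 3, a change of 0.12 (-0.11 to 0.36, adjusted p = 1). The difference between the effects was 0.36 (0.04 to 0.69), which did not pass either (adjusted p = 0.989). The changes of Acvr2a ran from -0.50 in the authors' deposited log2 table centred per array to -0.13 with the larger offset at 2 h, and from 0.37 to 0.06 under the same settings at 24 h, and none passed.

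The series title concerns transcription driven by phosphorylated CREB, a factor that binds the cyclic AMP response element. Start regions of 300 bases from RefSeq (build GRCr8) were available for 6 of the 8 genes, Fst and Acvr1 being the ones not matched. Searched on both strands, the full element TGACGTCA was in none of the 6 and in 1.83% of 33469 rat start regions. Its shorter core TGACG, which lies inside the full element, was in 1 of the 6, that of Acvr2a, and in 21.2% of all. That region is printed because it is the one with a match, with that core in capitals, 86 bases before the annotated start on the plus strand at chr3:53614536-53614835. A match is a run of letters and says nothing about binding.
Acvr2a: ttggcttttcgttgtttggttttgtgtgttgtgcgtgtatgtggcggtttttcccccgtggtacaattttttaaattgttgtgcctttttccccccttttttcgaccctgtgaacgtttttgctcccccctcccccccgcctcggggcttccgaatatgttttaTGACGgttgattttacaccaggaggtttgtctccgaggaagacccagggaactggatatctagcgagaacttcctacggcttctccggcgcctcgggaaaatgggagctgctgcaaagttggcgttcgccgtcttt

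Acvr2b has 2 probes of unequal brightness, which correlated at r = 0.48 over the 24 arrays with slide means taken off. The brighter one was above background on all 24 arrays and varied more between arrays of a group than 98.4% of tested probes (residual SD 0.50 on the log2 scale). Its level was 7.74, 8.92 and 9.18 in METH rats at 2 h, against 8.54, 8.78 and 9.42 in saline rats of slide 1, where METH replicates 4 and 6 were the low ones. The log2 change was -0.29 (95% interval -0.81 to 0.24, limma, adjusted p = 0.764), which was -0.01 without both arrays of lowest weight and -0.74 with the cortex marker mean as a covariate. In METH rats at 24 h the level was 8.12, 8.44 and 9.31, against 7.94, 8.59 and 9.19 in saline rats of slides 2 and 3, a change of -0.04 (-0.57 to 0.49, adjusted p = 1) that was 0.27 within slide 2 and -0.35 within slide 3. The difference between the effects was 0.25 (adjusted p = 0.99), which was -0.03 without both arrays of lowest weight and 0.56 with the covariate. The other probe was above background on 4 arrays, all of saline rats, and was not tested. The intervals of Acvr2b are the widest among the 5 tested probes, and they do not leave out a 1.4-fold change in either direction at 24 h.

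Around the members, 78 further genes of activin, TGF-beta and BMP signalling were listed, of which 61 had a probe and 43 a tested probe. None of the 43 passed the test at 2 h, at 24 h or for the difference between the times. At 2 h their median log2 change was 0.01, against -0.004 for all tested probes, with 24 above 0 and 9 (20.9%) at an unadjusted p under 0.05, against 9.22% of all probes. At 24 h the median was 0.02, against -0.002 for all probes, with 25 above 0 and 1 (2.33%) at an unadjusted p under 0.05, against 1.94%. Among the groups of the list at 2 h, the 11 ligands had a median of -0.04, the 7 receptors and co-receptors -0.08, the 3 secreted antagonists 0.13, the 9 proteins with a follistatin domain 0.20, the 7 Smads and partners 0.11 and the 6 targets 0.12.

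Smad2, the transcription factor that activin receptors phosphorylate, had the lowest p of the list at 2 h. Its level was 5.87, 6.17 and 6.38 in METH rats at 2 h, against 5.49, 5.75 and 5.96 in saline rats of slide 1. Of 6 METH arrays, 5 exceeded all saline arrays. The share of all probes with such a count was not computed. The log2 change was 0.45 (SE 0.11, limma, adjusted p = 0.0919), and it did not pass in any of the 38 alternatives (adjusted p 0.059 to 0.689). At 24 h its level was 6.06, 6.23 and 6.43 in METH rats, against 6.02, 6.21 and 6.43 in saline rats of slides 2 and 3, a change of 0.04. The difference between the effects of -0.41 did not pass (adjusted p = 0.939).

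Fstl3 encodes a second secreted activin-binding protein of the follistatin family. At 2 h its log2 change was -0.30 (SE 0.10, limma, adjusted p = 0.288), opposite in sign to that of Fst, with levels of 5.70 to 5.98 in METH rats at 2 h and 5.71 to 6.39 in saline rats of slide 1. At 24 h the change was 0.07, and the difference between the effects was 0.37 (adjusted p = 0.989). Nbl1, a secreted BMP antagonist, had a change of 0.41 at 2 h (SE 0.14, adjusted p = 0.299), which was 0.11 with the cortex marker mean as a covariate. Id2, a target of Smad signalling that inhibits helix-loop-helix factors, had a change of 0.24 at 2 h, which was 0.02 with the same covariate. At 24 h its change was -0.27, which was -0.17 without METH replicate 3, and the difference of -0.51 did not pass (SE 0.19, adjusted p = 0.939).

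**Figure D5:**
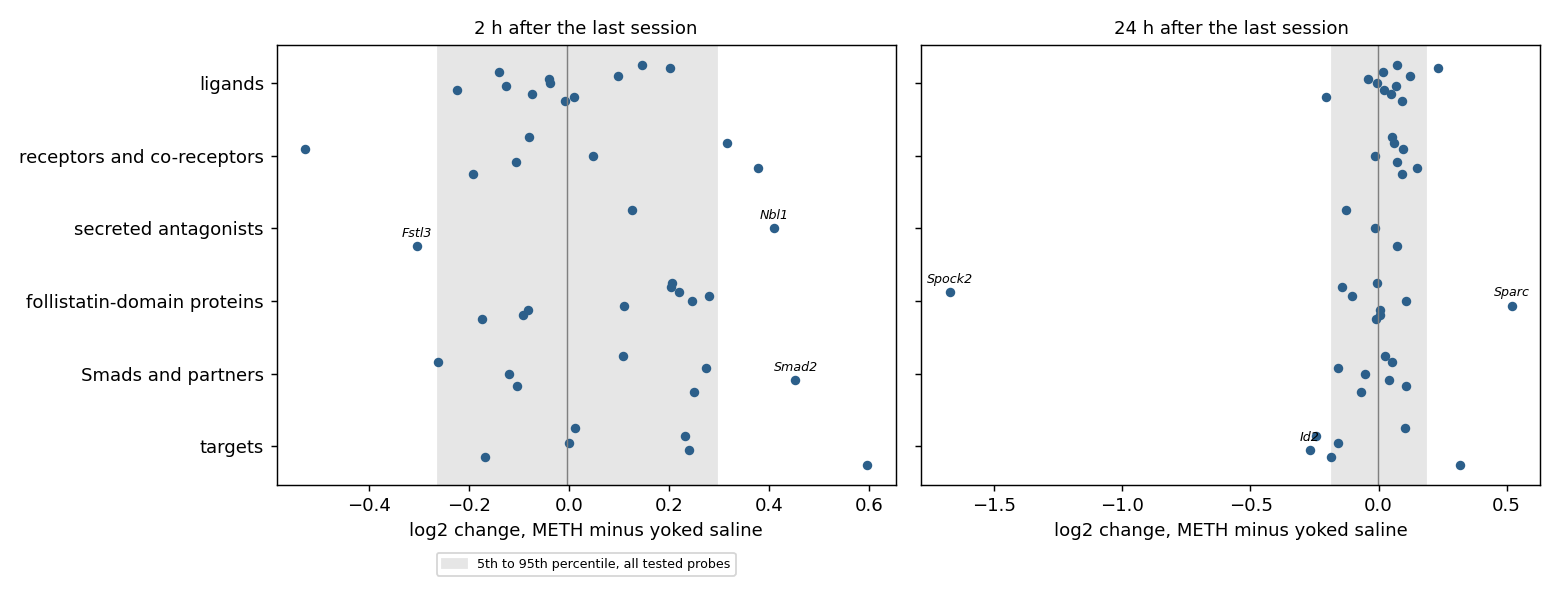
Log2 change, METH minus yoked saline (x axis), of 43 tested pathway genes in 6 groups (y axis) at 2 h (left) and 24 h (right), 1 point per gene. The grey band holds the 5th to 95th percentile of all tested probes. The 3 genes of lowest p in each comparison are named, and Spock2 at 24 h, at -1.68, is the point farthest from 0.

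At 24 h the lowest p of the list belonged to Spock2, Id2 and Sparc. Sparc, a matrix protein with a follistatin-like domain, was at 8.85 to 9.83 in METH rats at 24 h, against 8.05 to 9.09 in saline rats of slides 2 and 3, with 3 METH arrays above every saline array and a log2 change of 0.52 (SE 0.26, limma, adjusted p = 1). Spock2, a proteoglycan with a follistatin-like domain, had a change of -1.68 (SE 0.63, adjusted p = 1) that rests on 2 arrays. METH replicates 1 and 2 at 24 h, both on slide 2, read 5.35 and 5.27, and the other 22 arrays read 9.50 to 10.97. The change was -3.56 within slide 2 and 0.21 within slide 3, and without METH replicate 2 it was -1.10.

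Over the 24 arrays, with the mean of each slide taken off, the named genes whose levels went most closely with Fst were Kif3c (Pearson r = 0.77), Nmu (0.74), Gdi2 (0.74), Sipa1l1 (0.74) and Pdyn (0.74), among 7505 named probes. Those that went most against it were Pde5a (-0.76), Itpka (-0.75) and Or1j21 (-0.72). These correlations are a description over arrays that share the 2 h difference used to pick Fst. A 2 h change of the same sign was thus partly built into the choice of the first 5 genes. Their adjusted p at 2 h is therefore no independent evidence of a link with Fst. Gdi2 had a log2 change of 0.10 at 2 h (limma, adjusted p = 0.714), and Sipa1l1 had 0.35 (adjusted p = 0.264). Nmu, the gene of the neuropeptide neuromedin U, was at 7.23, 7.62 and 8.38 in METH rats at 2 h, against 5.93, 6.24 and 6.61 in saline rats of slide 1, and its log2 change of 1.44 at 2 h passed (limma, adjusted p = 3.15e-05). Pdyn, the precursor of dynorphins, had a change of 0.51 at 2 h (adjusted p = 0.144) and 0.18 at 24 h (adjusted p = 1). Kif3c, a kinesin motor gene, was at 8.06 to 8.66 in METH rats at 2 h and 7.54 to 8.06 in saline rats of slide 1, a change of 0.50 (adjusted p = 0.0919).

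With the group means taken off as well, so that differences between METH and saline no longer count, other genes were nearest to Fst, led by Hspa12b (r = 0.79) and Tfcp2 (0.75), and Pcdh9 was the most opposed (-0.78). Among the members, Acvr1 then ranked 39th of 7505 in likeness to Fst (r = 0.66), and it ranked 1389th (r = 0.27) when the group differences were kept. Both Fst and Acvr1 had their lowest reading on saline replicate 4 of slide 1, the array of lowest weight (0.355). Like Fst, Hspa12b and Tfcp2 were above background on 5 of 6 saline arrays of slide 1. All these r values include that replicate, and its part in them was not tested. The r values of the other members were 0.07 for Fstl1, 0.02 for Acvr2a and -0.39 for Acvr2b without group means, and -0.22, -0.29 and -0.40 with them.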

How the data were processed

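The authors deposited background-subtracted probe intensity, called raw and non-normalized per the file headers (26.4% to 31.7% of an array's values are below 0). The detection score deposited beside it, called a p-value per the file headers, stands in another probe order (rank correlation -0.0136 to -0.00495), so sorted scores were assigned to sorted intensities. The authors' deposited log2 table, an alternative here, equals log2 of the intensity floored at 1 minus each probe's median, taken over slide 1 and over the other 12 arrays on their own (to within 2.17e-06).

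In R 4.3.3 with limma 3.58.1, neqc (offset 16, which understates the fold of a dim gene) gave quantile-normalized log2 levels, which compare no probe with another. A probe was tested if 6 or more arrays detected it (p under 0.05). One linear model held the mean of each group and the offset of slide 3 from slide 2, with eBayes and Benjamini-Hochberg adjustment. Its residuals were wider on slide 1 (SD 0.291) than on the other slides (0.224), so the shared spread is too small at 2 h and too large at 24 h. The model was also run on simulated independent normal values. These hold no outlying arrays, so that run does not test the model under such conditions, and no result of it is used here. The number of arrays limits the precision.

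Groups and slides came from the titles. The labels do not say outright that each array is another animal, so p-values measure the spread between these samples. Symbols came from the platform annotation (13793 probes with 1 symbol, 0 with several, 8730 with none), updated through RefSeq GRCr8 (13752 matched). Named are all members, the 3 pathway genes of lowest p in each contrast (for a gene with several tested probes, the brightest), and the 5 genes most and 3 least like Fst, of which those described further were chosen after their values were seen. Members and lists were chosen with earlier results of these data known. Alternatives changed the filter, normalization, offset, values, arrays in the fit, slide term, slide position, weights and variance model.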

Additional observations from a re-analysis of the deposited data

Results flagged for a closer look

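Of 20 groups of 6 arrays, for 5 tested probes, 3 held an array far from the others, and chance gives about 1 in 20. Fst on saline replicate 4 of slide 1 read 5.45, with the nearest saline array at 6.16. Acvr1 on the same array read 5.82, with the nearest at 6.68. That array had the lowest weight of all 24, and both changes at 2 h without it are given with those genes. Acvr1 on saline replicate 3 of slides 2 and 3 read 7.02, with the nearest saline array at 6.74, and without it the log2 change of Acvr1 at 24 h was -0.17. The part of array quality in these readings was not tested.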

How the results depend on the processing

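No paired analysis was possible because the labels carry no replicate numbers. Of 565 member values under the alternatives, 555 moved by less than 1 SD between arrays, 10 moved by more and 21 had the opposite sign, none of them of Fst. Many of the 565 could not move, so the count of 555 does not measure stability. Levels were normalized over all 24 arrays together before any array was left out. Leaving out an array of slides 2 and 3 then cannot move a log2 change at 2 h. In the same way, leaving out an array of slide 1 cannot move one at 24 h. The filter and the variance model leave every log2 change as it is. Of the 490 that were tested, 0 passed. The count of probes past the threshold at 2 h was 3 with no filter, 3 with median scaling, 2 in the deposited log2 table, 1 in separate fits of 12 arrays, 16 with slide position, 2 with array weights and 29 without both arrays of lowest weight. It was 3 to 17 with 1 array left out: leaving out METH replicate 6 gave 17, METH replicate 4 gave 11, saline replicate 1 or 4 of slide 1 gave 16, and saline replicate 2 or 3 gave 3. At 24 h it was 3 with no filter, 0 in the deposited log2 table (50 at an unadjusted p under 0.05, limma), 2 with that table centred, 8 in separate fits and 3 with an intensity trend, and 4 to 7 with 1 array left out. For the difference between the times it was 3 with slide position, 4 with array weights and 4 without both arrays of lowest weight, and 0 to 4 with 1 array left out: 4 without METH replicate 6 at 2 h, and 3 without saline replicate 3 of slide 1 or METH replicate 5 at 24 h. Median scaling and the uncentred deposited table moved the median of all probes at 2 h by 0.15 and 0.20. The cause of these moves was not tested. Signal over background limits Inhba, Inhbb, Acvr1b and Acvr2a.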
